A study of Homo sapiens with 12 samples.

Results

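Cells that have stopped dividing in senescence signal to their neighbours through secreted proteins, a state called the senescence-associated secretory phenotype (SASP). Of the 58735 genes in the expression table, 10 were followed here by gene symbol: IL1A and IL1B, IL6, IL11 and LIF, CXCL1, CXCL2, CXCL3 and CXCL8, and CCL2. All 10 were found in the table. The RNA came from 2 cell lines labelled as granulosa cell tumor (GCT) lines of wild-type genotype, KGN and COV434, either left untreated as controls or treated with the SIRT3 inhibitor 77-39 for 72 h at a dose labelled as 10 µm/ml. SIRT3 is a deacetylase of the mitochondria. Each of the 4 groups had 3 libraries, and the labels do not say whether these came from separate cultures, so the p-values below measure only the spread between these libraries. Both lines were bought as established lines and stand for 1 tumor each, and whether the controls received a vehicle is not given in the sources used here.

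IL-1α and IL-1β both signal through the IL-1 receptor, which joins MyD88 and IRAK kinases to NF-κB, and IL-1α on the surface of senescent cells is known to drive the release of IL-6 and IL-8. IL-6, IL-11 and LIF each use their own receptor chain but share gp130 (IL6ST), which activates JAK kinases and STAT3 and is held in check by SOCS3. CXCL1, CXCL2, CXCL3 and CXCL8 (IL-8) attract neutrophils through CXCR1 and CXCR2, and CCL2 attracts monocytes through CCR2. The promoters of several of these genes carry NF-κB sites, and their mRNAs are short-lived because of AU-rich elements bound by ZFP36 proteins.

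The start-site regions of 8 of the 10 genes were read from RefSeq (GRCh38.p14, 250 bases before to 50 after the start site), and LIF and CCL2 were not among them. They were searched on both strands for GGNNTTTCC, a form of the NF-κB site, and for TGANTCA, a form of the AP-1 site. The 5 genes below held the NF-κB letters, which are shown because NF-κB is the pathway the study examined. The sequences are written 5′ to 3′ on the strand of the gene, with the match in capitals.
CXCL1: tggaactccgGGAATTTCCctggcccgggg
CXCL2: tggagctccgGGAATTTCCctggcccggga
CXCL3: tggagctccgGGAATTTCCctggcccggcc
CXCL8: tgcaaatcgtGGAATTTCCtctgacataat
IL6: atcaaatgtgGGATTTTCCcatgagtctca

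The match began at base −78 from the start site in CXCL1 and CXCL3, −77 in CXCL2, −91 in CXCL8 and −72 in IL6. CXCL1, CXCL2 and CXCL3 each held a second match, GGGCTTTCC, that began at base −53. The printed stretches lie at chr4:73869305-73869334 (plus strand) for CXCL1, chr4:74099253-74099282 (minus strand) for CXCL2 and chr4:74038748-74038777 (minus strand) for CXCL3. Those of CXCL8 and IL6 lie at chr4:73740468-73740497 and chr7:22727118-22727147, both on the plus strand. In GENCODE release 29 the stretches of CXCL1 and CXCL8 lie before the gene, those of CXCL2 and CXCL3 lie inside the first exon of a longer transcript, and that of IL6 lies inside the gene, with 1 of its 30 bases in an exon. Over 100 bases lined up on the first match, CXCL1 and CXCL3 were 93.0% identical, CXCL1 and CXCL2 76.0%, and CXCL2 and CXCL3 72.0%. The AP-1 letters were found in CXCL8 (from base −137), IL11 (from −96) and both start sites listed for IL1A, and neither motif was found in IL1B. Among all 35116 start-site regions of the same length, 6.26% held the NF-κB letters and 7.71% the AP-1 letters. A match is a description of the sequence and does not show that the site was bound.

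The 12 libraries held between 15547851 and 18280415 reads on genes, so that 3 reads on a transcript of 1 kb correspond to between 0.152 and 0.200 FPKM (fragments per kilobase of gene, scaled to library size). Mitochondrially encoded genes took 13.51% of the reads in treated COV434 library 1, which stood apart from the 7.3% to 9.635% of the other 11 libraries, and the COV434 results for IL1A, IL1B, IL6, LIF and CXCL2 are also given without it. The labelled cell type was checked against 9 granulosa cell genes. FOXL2, the transcription factor that marks granulosa cells, had 2 reads in the 6 libraries labelled KGN together, against a mean of 12.4 ± 0.786 FPKM (SD, n = 3) in untreated COV434, and FSHR had no read in any library. Of the 9 genes, 1 (AMH) reached a mean of 1 FPKM in KGN and 3 (FOXL2, AMH and INHA) in COV434, so the lines are named below only as their labels name them. Leukocyte genes, a possible outside source of cytokines, had summed levels between 0.111 and 0.612 FPKM in every library, and none of the 8 reached a mean of 1 FPKM in either line. ITGAM and CD3E, which mark single leukocyte lineages, had no read in either line. PTPRC (CD45), which marks leukocytes in general, had 281 reads in KGN and 1 in COV434, and CSF1R 19 and 60. SIRT3 itself averaged 4.29 ± 0.0675 FPKM in untreated and 4.04 ± 0.468 in treated KGN (adjusted p = 0.475), and 3.82 ± 0.432 and 4.38 ± 0.880 in COV434 (adjusted p = 0.929).

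Most of the cytokine and chemokine RNAs were scarce, and 3 of them were seen in 1 line alone. At least 1 read was seen for 8 of the 10 genes in KGN and for 9 of 10 in COV434. Of the 35981 genes with a read in any library, 32824 had one in KGN and 27780 in COV434. Being seen in 1 line alone was therefore common over all genes and not particular to these 10. A mean of 1 FPKM over the 6 libraries of a line was reached by 1 gene in KGN (LIF) and by 3 in COV434 (LIF, IL6 and CXCL2). The sum of all 10 lay between 1.92 and 2.43 FPKM in untreated KGN and between 6.99 and 11.4 FPKM in untreated COV434. LIF, the member with the highest level in either line, lay above 39.06% of the coding genes that had a read in KGN and above 52.99% of those in COV434. IL6 lay above 44.73% and CXCL2 above 41.72% of those in COV434. Levels are compared between genes only as FPKM, which are per kilobase.

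**Figure D1:**
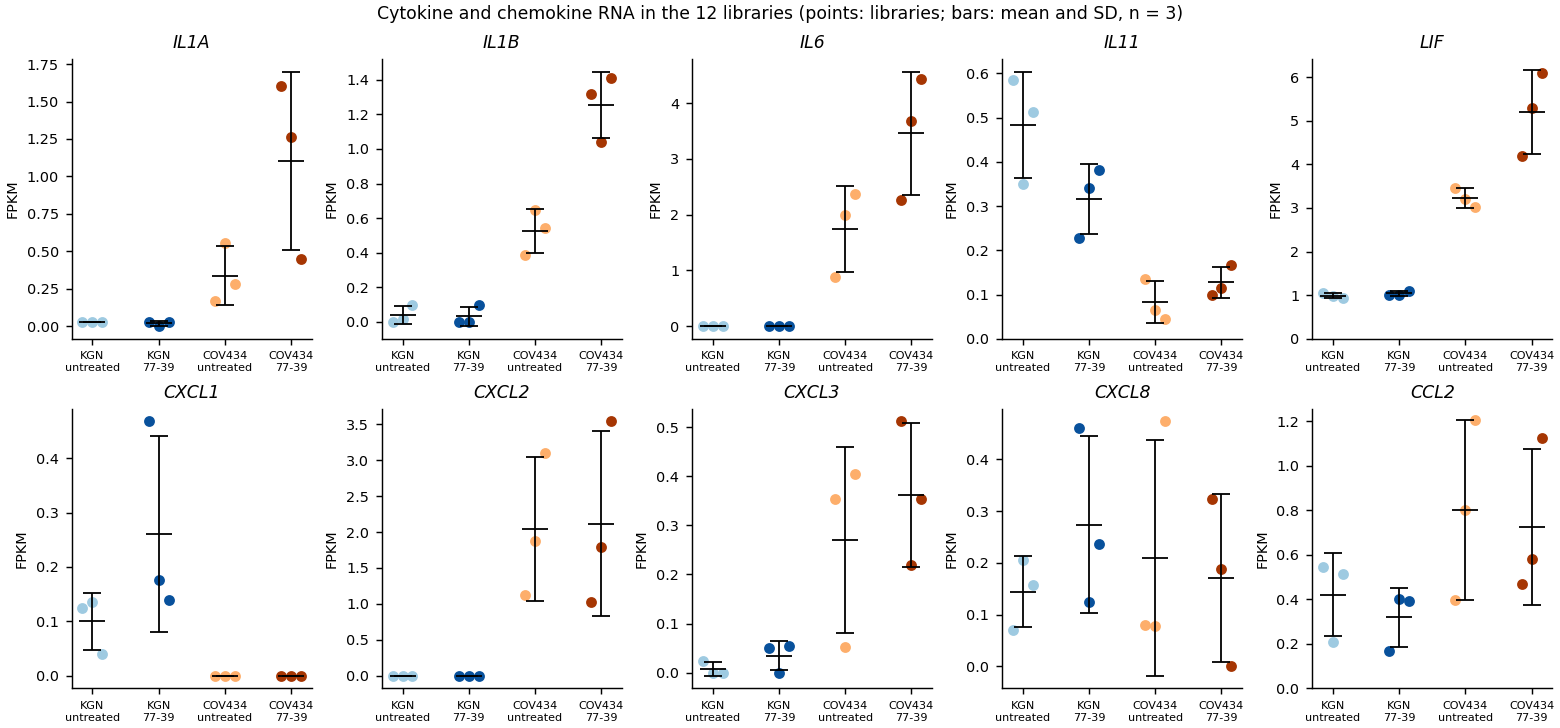
FPKM of the 10 genes in each of the 12 libraries, with points for libraries and bars for the mean and SD of the 3 libraries of a group. Each panel has its own linear axis. IL6 and CXCL2 stayed at 0 in all 6 libraries labelled KGN and CXCL1 in all 6 labelled COV434, and the treated COV434 libraries lay above the untreated ones for LIF and IL1B.

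Presence and absence split the lines for 3 of the genes, as they did for many other genes with reads. IL6 (ENSG00000136244, chr7:22725884-22732002, plus strand) had 0 reads in all 6 libraries labelled KGN and 541 reads in the 6 labelled COV434. With 3 reads over the 6 libraries as the limit that a count of 0 allows, its mean of 2.60 FPKM in COV434 was at least 193.4-fold higher than in KGN. CXCL2 (ENSG00000081041, chr4:74097035-74099293, minus strand) likewise had 0 reads in KGN and 316 in COV434, at least 112.0-fold higher by the same limit. CXCL1 (ENSG00000163739, chr4:73869393-73871242, plus strand) showed the opposite arrangement, with 25 reads in KGN and 0 in COV434, at least 7.75-fold higher in KGN. These limits cover counting error only.

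In the untreated libraries LIF was significantly higher in COV434, by limma on log2(FPKM + 1) with Benjamini-Hochberg adjustment over all genes. For LIF (ENSG00000128342, chr22:30240447-30246851, minus strand) untreated KGN gave 1.06, 0.973 and 0.935 FPKM and untreated COV434 3.47, 3.22 and 3.01 FPKM. The groups did not overlap, and KGN was lower by a log2 difference of -1.09 (SE 0.0829, adjusted p = 3.207e-05), where 36.4% of the 13098 genes tested were called higher in COV434. At a lower filter, a mean of 0.1 FPKM, which LIF passed in both lines, the adjusted p was 6.224e-05. For CXCL2 the untreated COV434 libraries gave 1.13, 1.88 and 3.11 FPKM, all above the 0 of KGN (log2 difference -1.55). It passed the filter through COV434 alone, so its call (adjusted p = 0.000939) is not independent of the filter, and without any 1 of the untreated COV434 libraries it dropped below the filter.

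At the filter of 0.1 FPKM, CCL2 and CXCL8 also passed in both untreated lines, and neither was called (log2 difference -0.33, adjusted p = 0.190, and -0.07, adjusted p = 0.713). The other 6 members that entered did so only through the line where they were higher, and so had to differ. Their calls are a description and support no direction. Among the 9 members entered, 5 were called higher in COV434 (LIF, CXCL2, IL6, IL1B and IL1A) and 1 in KGN (IL11), where 26.3% and 31.4% of the 21930 genes were called in these directions. IL1B averaged 0.0391 ± 0.0523 FPKM in untreated KGN and 0.526 ± 0.129 in untreated COV434, and IL1A 0.0256 ± 0.00183 and 0.335 ± 0.197. IL11, a gp130 cytokine known from stromal tissue, averaged 0.483 ± 0.120 FPKM in KGN and 0.0821 ± 0.0475 in COV434. CXCL3 averaged 0.00810 ± 0.0140 and 0.270 ± 0.190 FPKM.

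Along chromosome 4 the chemokine genes of the cluster did not follow 1 line. Read in chromosomal order, CXCL8, CXCL6, PF4V1, CXCL1, PF4, PPBP, CXCL5, CXCL3 and CXCL2 lie next to each other. CXCL6, CXCL1 and CXCL5 together had 82 reads in KGN and 0 in COV434, while CXCL3 and CXCL2, at the far end, had 5 and 385. CXCL8, at the other end, had 51 reads in KGN and 42 in COV434. This arrangement was noticed after the values were seen and was not tested. CXCL1, CXCL2 and CXCL3 are close copies of each other, and how the authors assigned reads shared between them is not given in the sources used here, so their separate values are uncertain.

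**Figure D2:**
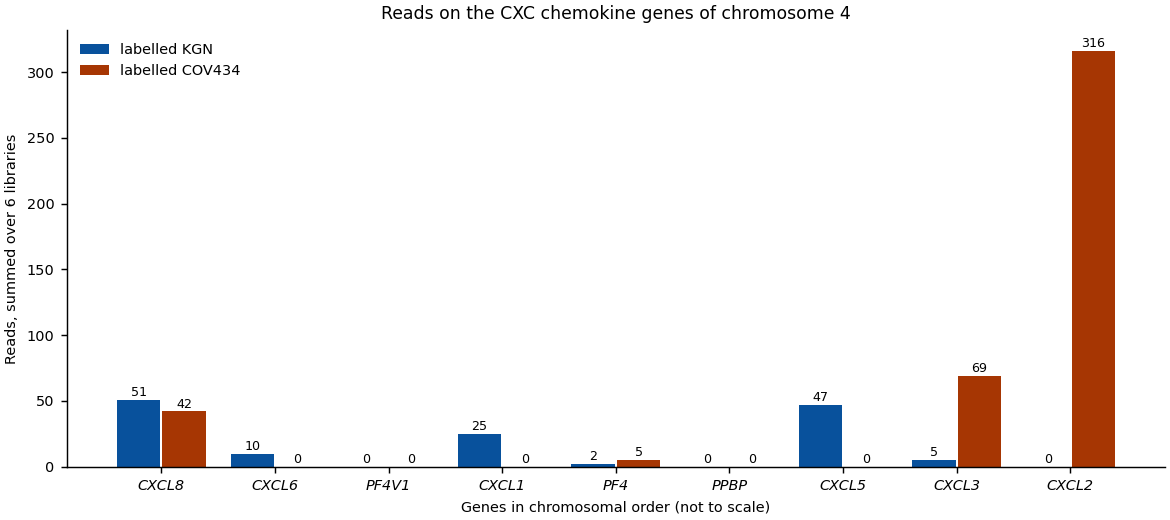
Reads on the 9 CXC chemokine genes of chromosome 4, summed over the 6 libraries of each line, with genes in chromosomal order and not to scale. CXCL6, CXCL1 and CXCL5 had reads in KGN alone, and CXCL2 had 316 reads in COV434 and 0 in KGN.

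Whether 77-39 moved these genes was asked in each line alone. In KGN the answer could be tested for few of them. LIF gave 1.06, 0.973 and 0.935 FPKM in the untreated and 1.01, 1.00 and 1.10 FPKM in the treated libraries. These ranges overlapped, the log2 difference was 0.04 (95% confidence interval -0.18 to 0.26), and the adjusted p was 0.795. LIF was the 1 member tested, and it was not called, whereas 34.0% of the 12671 genes tested in KGN were called in either direction (17.6% higher and 16.4% lower).

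At a filter of 0.1 FPKM, 5 members could be tested in KGN and none had an unadjusted p under 0.05, against 30.6% of all 21625 genes. IL11 (ENSG00000095752, chr19:55364389-55370463, minus strand) had 0.586, 0.351 and 0.514 FPKM untreated and 0.227, 0.340 and 0.381 treated, with overlapping groups (log2 difference -0.17, 95% confidence interval -0.40 to 0.06, adjusted p = 0.289). CXCL1 was the 1 member of the 5 whose treated libraries all lay above the untreated ones, where 19.7% of genes did so. Its levels were 0.125, 0.136 and 0.0392 FPKM untreated and 0.468, 0.175 and 0.139 treated. They rest on 3, 3 and 1 reads and on 11, 4 and 3 reads (log2 difference 0.19, adjusted p = 0.342), a difference that was not detectable at this depth. The untreated mean of 0.0999 FPKM lay below the filter, so CXCL1 entered through the treated libraries.

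The other chemokines measured in KGN overlapped between the groups. CXCL8 (ENSG00000169429, chr4:73740506-73743716, plus strand) had 0.0712, 0.206 and 0.156 FPKM untreated and 0.461, 0.125 and 0.237 treated, with an adjusted p of 0.463. CCL2 (ENSG00000108691, chr17:34255218-34257203, plus strand) had 0.543, 0.206 and 0.512 FPKM untreated and 0.167, 0.400 and 0.392 treated, with an adjusted p of 0.657. IL1A had between 0 and 1 read in each KGN library, IL1B between 0 and 6 and CXCL3 between 0 and 2. IL6 and CXCL2 had none with or without 77-39, so a change in KGN could not be measured for any of these 5.

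In COV434 the IL-1 ligands and the gp130 cytokines IL6 and LIF were higher in each treated library than in its same-numbered untreated library. Of the chemokines followed here, those with reads in COV434 (CXCL2, CXCL3, CXCL8 and CCL2) were not. By mean FPKM, IL1A was 3.29 times, IL1B 2.39 times, IL6 1.98 times and LIF 1.61 times the untreated level, and CXCL2 1.04 times. None of them passed the adjusted threshold in the fit of COV434 alone. Over all 12060 genes tested in that line, 0.0415% were called, 5 genes in all, with 87 (0.721%) called once same-numbered libraries were paired.

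IL1A (ENSG00000115008, chr2:112773915-112784590, minus strand) had 0.171, 0.554 and 0.281 FPKM in untreated COV434 and 1.60, 1.26 and 0.448 FPKM in treated COV434. The treated library 3 lay below the untreated library 2, so the groups overlapped. IL1B (ENSG00000125538, chr2:112829751-112836903, minus strand) had 0.390, 0.646 and 0.541 FPKM untreated and 1.32, 1.04 and 1.41 FPKM treated. Here all treated libraries lay above all untreated ones, on 20 to 34 reads against 53 to 78. The log2 difference was 0.62 for IL1A (SE 0.239, adjusted p = 0.653 by limma, filter at 0.1 FPKM). It was 0.56 for IL1B (SE 0.141, adjusted p = 0.362). Without the treated library 1 these were 0.45 (95% confidence interval -0.12 to 1.02) and 0.54 (0.15 to 0.93).

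IL6, the classical SASP cytokine, had 0.875, 1.99 and 2.37 FPKM in untreated and 2.26, 3.68 and 4.43 FPKM in treated COV434. Library 1 was the lowest and library 3 the highest in both groups, and the groups overlapped because the treated library 1 lay below the untreated library 3. The log2 difference was 0.71 (SE 0.272, 95% confidence interval 0.09 to 1.34, adjusted p = 0.523 by limma). With same-numbered libraries paired the same difference had an adjusted p of 0.0978, and on recovered reads with the pairing 0.0545. Without the treated library 1 the log2 difference was 0.92 (adjusted p = 0.325).

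LIF, named for inhibiting leukemia cells and acting through LIFR and gp130, had 3.47, 3.22 and 3.01 FPKM in untreated and 4.19, 5.29 and 6.10 FPKM in treated COV434. The groups did not overlap, and library 3, the lowest untreated one, was the highest treated one. The log2 difference was 0.54 (SE 0.161, 95% confidence interval 0.17 to 0.91, adjusted p = 0.353 by limma). When all 12 libraries were fitted together, so that KGN shared in the estimate of the spread, LIF was called (SE 0.108, adjusted p = 0.0199). That fit called 223 of 13127 genes higher in COV434 and 257 lower. Replicate libraries differed more in COV434 than in KGN, so it understates the spread of COV434 and the call is uncertain. Without the treated library 1 the log2 difference was 0.66 (adjusted p = 0.270).

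IL11 stayed near the limit of detection in COV434, with 0.136, 0.0661 and 0.0448 FPKM untreated and 0.1, 0.114 and 0.168 treated. These values rest on 2 to 8 reads, and the log2 difference was 0.06 (adjusted p = 0.958).

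CXCL2, CCL2, CXCL3 and CXCL8, the chemokines followed here that had reads in COV434, showed no difference beyond their spread. This does not extend to CCL5, a chemokine outside the genes followed here. Its treated COV434 libraries all lay above the untreated ones, and its values are given below. CXCL2 had 1.13, 1.88 and 3.11 FPKM untreated and 1.02, 1.79 and 3.54 treated. Library 1 was again the lowest and library 3 the highest in both groups, and the log2 difference was 0.01 (95% confidence interval -0.76 to 0.78, adjusted p = 0.9997), with a sign that turned at a smaller pseudocount and a value of 0.28 without the treated library 1. CCL2 kept the same order, with 0.395, 0.800 and 1.20 FPKM untreated and 0.471, 0.583 and 1.13 treated (log2 difference -0.05, adjusted p = 0.984).

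CXCL3 (ENSG00000163734, chr4:74036589-74038807, minus strand) had 0.354, 0.0530 and 0.404 FPKM untreated and 0.512, 0.220 and 0.353 treated (log2 difference 0.11, adjusted p = 0.936). CXCL8 had 0.0796, 0.0776 and 0.473 FPKM untreated and 0.323, 0.188 and 0 treated, on 0 to 18 reads per library (log2 difference -0.04, adjusted p = 0.985). For both, single libraries of a group differed by more than the group means did.

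**Figure D3:**
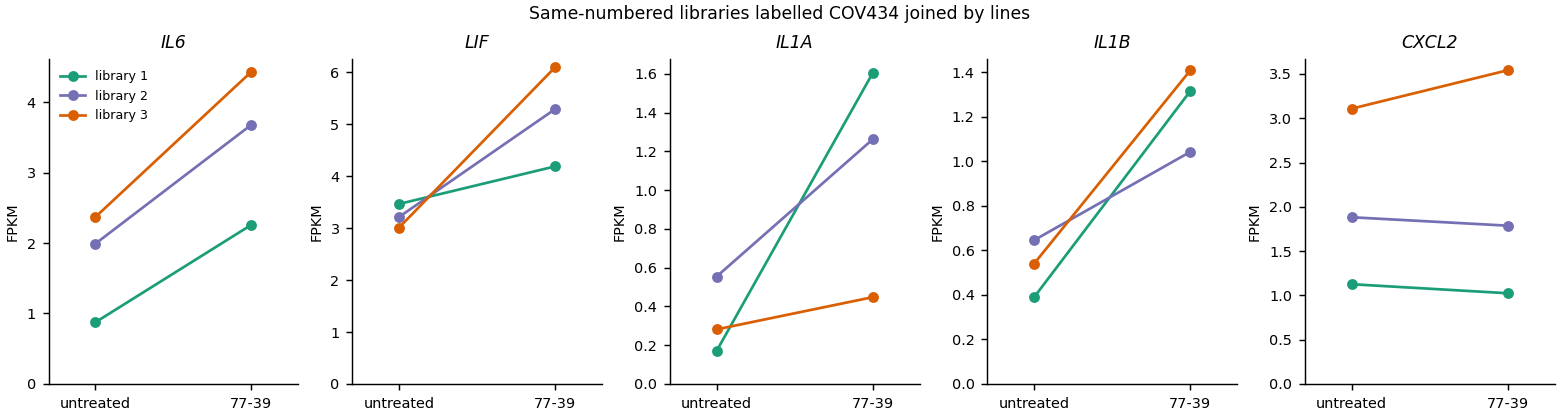
FPKM of IL6, LIF, IL1A, IL1B and CXCL2 in the libraries labelled COV434, with lines joining the untreated and treated library of the same number. IL6, LIF, IL1A and IL1B were higher in the treated library in 3 of 3 pairs and CXCL2 in 1 of 3, and library 1 was the lowest for IL6 and CXCL2 in both groups. The share of all genes higher in 3 of 3 pairs was not counted.

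Counted over the members, 2 of the 3 tested in COV434 had an unadjusted p under 0.05, both higher, where 3.52% of all genes were higher and 4.49% lower by that rule. At the 0.1 FPKM filter these were 4 of 9 members (IL1B, LIF, IL1A and IL6), where 3.38% of genes were higher. Without the treated library 1 they were 3 of 9, as IL1A was lost, where 822 of 19143 genes were higher by that rule. Of the 9 log2 differences 7 were positive, where the median over all genes was -0.005. IL11 is among these 7 and entered through its treated libraries (mean 0.0821 FPKM untreated and 0.127 treated), so its sign is not independent of the filter. The groups did not overlap for 2 of the 9, LIF and IL1B, both higher, as for 6.34% of all genes. The sum of all 10 members lay between 6.99 and 11.4 FPKM in untreated and between 11.8 and 17.6 FPKM in treated COV434. In KGN it lay between 2.04 and 2.43 FPKM in the treated libraries, overlapping the untreated ones. RNA from the whole culture was measured, so a change in the share of cells that make a cytokine and a change in RNA per cell cannot be told apart. The 8 leukocyte genes summed to 0.225 to 0.612 FPKM in untreated and 0.111 to 0.209 in treated COV434, and the sum of 6 fibroblast and endothelial genes was 27.4 to 29.5 FPKM untreated and 21.1 to 22.9 treated. The fibroblast and endothelial sum was lower in treated KGN as well, at 26.5 to 28.9 FPKM untreated and 21.5 to 22.7 treated. In KGN the leukocyte sum was 0.276 to 0.376 FPKM untreated and 0.460 to 0.538 treated, where PTPRC had 0.188 to 0.249 and 0.313 to 0.378 FPKM. The part of other cell types in these results was not tested.

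**Figure D4:**
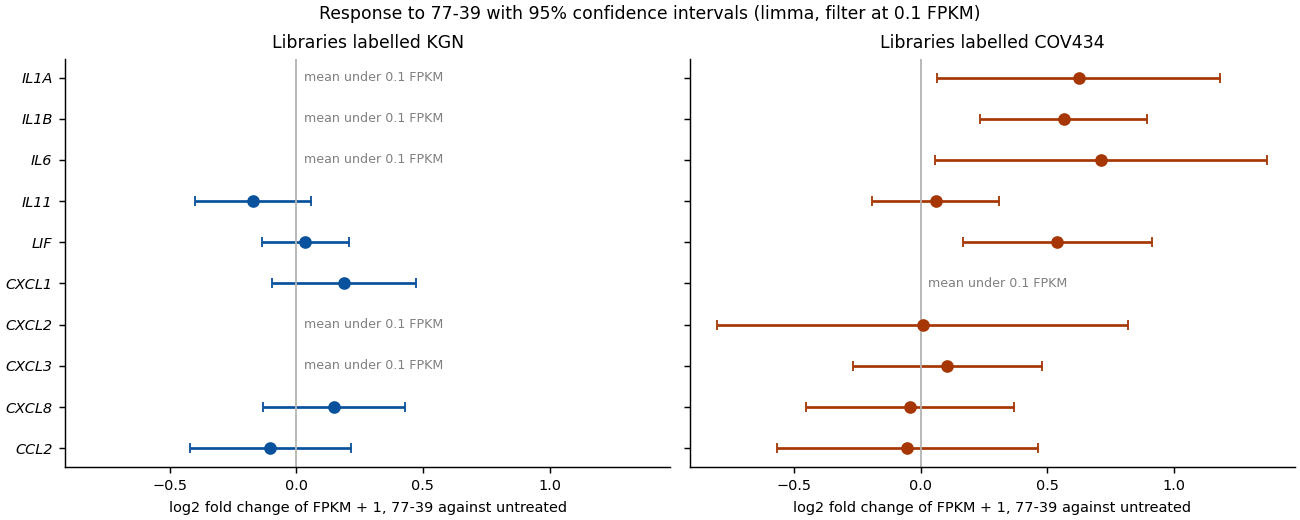
Log2 difference of FPKM + 1 between treated and untreated libraries for each gene, with 95% confidence intervals from limma at a filter of 0.1 FPKM, for KGN on the left and COV434 on the right. The intervals of IL1A, IL1B, IL6 and LIF in COV434 lay above 0 before adjustment for the number of genes, all 5 tested in KGN included 0, and genes with a mean under 0.1 FPKM have no point.

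The difference between the lines in their response was tested as the interaction over all 12 libraries, where 3.6% of 13127 genes were called. At the filter of 1 FPKM, LIF was the 1 member tested that had reads in both lines. The difference of its log2 differences, KGN minus COV434, was -0.50 (SE 0.153, adjusted p = 0.103 by limma), which was not called. Its unadjusted p was under 0.05 toward a lower response in KGN, as for 8.44% of all genes. Without the treated COV434 library 1, LIF was called (-0.63, adjusted p = 0.0158). This fit takes 1 spread for both lines, although replicate libraries differed more in COV434 than in KGN. Its SE for LIF lay below the 0.161 of COV434 alone, so the spread of COV434 is understated here and the call of LIF is uncertain. IL6 and CXCL2 had no read in KGN, so their KGN side is a fixed 0 with no spread, and the fit of the 2 lines gives no test of a difference in response for them. IL1A and IL1B, with 5 and 12 reads in all of KGN, could not be compared either. At the 0.1 FPKM filter CCL2, CXCL8 and IL11, with reads in both lines, were tested by limma as well. None was called (-0.05, adjusted p = 0.960, 0.19, adjusted p = 0.753, and -0.23, adjusted p = 0.393). Of 22190 genes, 244 were called higher and 201 lower at that filter.

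Receptor RNA also differed between the lines. IL1R1, the signaling receptor of both IL-1 ligands, had 0 FPKM in untreated KGN and 0.00800 in treated KGN. In COV434 it had 1.61, 1.66 and 2.19 FPKM untreated and 0.820, 1.14 and 0.861 treated. The treated libraries all lay below the untreated ones, as for 1322 of 19213 genes, and the log2 difference was -0.54 (adjusted p = 0.392 by limma). Its co-receptor IL1RAP averaged 6.52 ± 0.863 FPKM in untreated and 5.62 ± 0.713 in treated COV434, against 0.134 ± 0.0141 and 0.266 ± 0.0210 in KGN.

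Of 9 receptor genes, 3 were tested in KGN and 2 rose, gp130 and the LIF receptor, where 17.6% of all genes tested were called higher. IL6ST (gp130) had 9.22, 8.87 and 9.86 FPKM in untreated and 13.7, 13.6 and 12.5 FPKM in treated KGN, with no overlap (log2 difference 0.47, SE 0.0566, adjusted p = 0.00160). LIFR averaged 1.17 ± 0.117 and 1.73 ± 0.180 FPKM (log2 difference 0.33, adjusted p = 0.0315). In COV434 both stood higher at the start, IL6ST at 16.6 ± 1.99 and LIFR at 11.7 ± 1.02 FPKM. Their treated COV434 libraries spread widely, from 11.2 to 26.7 FPKM for IL6ST and from 7.68 to 17.9 for LIFR, and neither was called (adjusted p = 0.986 and 0.997).

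The ligand-specific receptor of IL-6, IL6R, averaged 0.105 ± 0.0224 FPKM in untreated KGN and 1.42 ± 0.248 in untreated COV434, and that of IL-11, IL11RA, 1.88 ± 0.127 and 0.634 ± 0.0906. The chemokine receptors had few reads in both lines. Over the 6 libraries of KGN and of COV434, CXCR1 had 2 and 0 reads, CXCR2 3 and 1, and CCR2 0 and 5.

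In KGN the signaling genes moved in both directions. Of 78 receptor, inhibitor, signaling, regulator and other SASP genes, 36 were tested and 12 were called higher and 6 lower (18 in all), where 17.6% of all genes were higher and 16.4% lower. These 2 shares are the background for each list named below. Their median log2 difference was 0.02, against 0.01 over all genes. This count fell to 11 without the untreated library 2 or 3, to 10 without the treated library 2, and to 2 in the fit of all 12 libraries. That last fit called 446 of 13127 genes higher and 569 lower in KGN. Among the gp130 pathway genes, 3 of 6 rose and 1 fell: the phosphatase PTPN11 (26.1 to 34.3 FPKM, log2 difference 0.38, adjusted p = 0.00160), the kinases JAK1 (15.7 to 20.7 FPKM, adjusted p = 0.00273) and JAK2 (2.64 to 3.95 FPKM, adjusted p = 0.00671) rose, and the kinase TYK2 fell (11.6 to 10.2 FPKM, adjusted p = 0.0271).

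Among 12 tested genes of IL-1 and NF-κB signaling in KGN, 3 rose and 1 fell. IRAK1, a kinase below the IL-1 receptor, rose from 60.6 ± 0.768 to 75.1 ± 1.48 FPKM (log2 difference 0.31, adjusted p = 0.00228). The related kinase IRAK4 (adjusted p = 0.0372) and CHUK, a kinase of the IκB kinase complex (adjusted p = 0.0365), rose too. MAP3K7, the kinase TAK1, fell from 33.3 to 28.3 FPKM (adjusted p = 0.0134). NFKBIA, a target and inhibitor of NF-κB, averaged 13.2 ± 0.442 and 12.6 ± 0.186 FPKM (adjusted p = 0.259).

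Transcription factors and mRNA decay factors that act on cytokine genes were mixed in KGN, with 1 rise and 3 falls among 6 tested. JUN, a subunit of AP-1, rose from 9.13 ± 0.843 to 15.04 ± 1.13 FPKM (log2 difference 0.66, adjusted p = 0.00150), and the related JUNB fell from 19.3 ± 0.873 to 13.8 ± 1.22 (-0.46, adjusted p = 0.00347). ZFP36 (-0.18, adjusted p = 0.0383) and ZFP36L1 (-0.19, adjusted p = 0.0322), which bind AU-rich elements, also fell. Of 8 other SASP genes tested, GDF15, a stress-induced cytokine of the TGF-β family, rose from 15.5, 17.6 and 16.4 FPKM to 25.6, 28.1 and 32.7 (log2 difference 0.76, adjusted p = 0.00162). The growth factor FGF2 (adjusted p = 0.00349) and the EGF receptor ligand EREG (adjusted p = 0.0357) rose, and the IGF-binding protein IGFBP7 fell (396.0 ± 39.0 to 297.3 ± 43.6 FPKM, adjusted p = 0.0344). The inhibitor list had 1 gene tested, SIGIRR, a brake on IL-1 receptor signaling, which was not called (-0.27, adjusted p = 0.0634).

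In COV434, 52 of these 78 genes were tested and none was called, with 5 higher and 7 lower at an unadjusted p under 0.05 and a median log2 difference of -0.06 against -0.02 over all genes. With same-numbered libraries paired, 3 were called (0 at the 0.1 FPKM filter), which are named here after their values were seen. CCL5, a chemokine induced by NF-κB and interferon, had 22.3, 46.8 and 36.4 FPKM untreated and 57.7, 93.8 and 81.6 treated, with no overlap. Its log2 difference was 1.16 (adjusted p = 0.258, and 0.0258 with pairing). The AP-1 subunits FOS (8.59 ± 1.75 to 3.88 ± 0.468 FPKM, adjusted p = 0.108, and 0.0475 with pairing) and JUNB (64.2 ± 6.33 to 37.1 ± 2.63 FPKM, adjusted p = 0.136, and 0.0390 with pairing) were lower in treated COV434. SOCS3, the feedback inhibitor of gp130 signaling, had 25.0, 24.3 and 22.4 FPKM untreated and 12.6, 17.2 and 16.2 treated (adjusted p = 0.263), and in KGN it averaged 0.226 ± 0.127 and 0.221 ± 0.0817 FPKM. TNFAIP3, an inhibitor of NF-κB that is itself an NF-κB target, averaged 13.0 ± 1.74 and 7.40 ± 1.43 FPKM in COV434 (adjusted p = 0.222).

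GAPDH is the gene to which the qPCR of the study was referred, so its own level bears on how these RNAs compare by that measure. In KGN it fell from 557.1, 655.9 and 643.1 FPKM to 315.6, 334.0 and 360.1 (log2 difference -0.87, SE 0.0859, adjusted p = 0.000779). In COV434 it had 1729, 1591 and 1731 FPKM untreated and 1465, 1275 and 1175 treated, with no overlap (-0.37, adjusted p = 0.721). When each library was scaled to GAPDH, LIF in KGN gave a log2 difference of 0.47 (adjusted p = 0.00513), on a scale where 11578 of 12861 genes were called higher and the median gene moved by 0.73. In COV434 the same scaling gave 0.84 for LIF, 0.97 for IL6 and 0.26 for CXCL2 (adjusted p = 0.117, 0.164 and 0.628), where the median gene moved by 0.29.

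Over the 12 libraries, the genes whose log2(FPKM + 1) was most like that of LIF, the member with the highest level, were APOL1 (Pearson r 0.994), PSORS1C1 (0.991) and AL121929.2 (0.991), out of 13124 genes compared. The 12 libraries fall into the 2 lines, and all points of a line share its level, so the correlations are given as a description with no test.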

How the data were processed

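The authors counted reads on genes after alignment (HISAT2 2.0.5, per the submitters' processing notes) and deposited FPKM, a unit corrected for the length of the gene and the size of the library. The labels name mouse builds, but 58724 of the 58735 genes match the human coordinates of GENCODE 29 (GRCh38). FPKM times gene length gave whole reads in 100.0% of values (tolerance 0.05).

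Each line was fitted alone with limma 3.58.1 (R 4.3.3; lmFit, eBayes with a trend) on log2(FPKM + 1). Genes entered where their mean reached 1 FPKM. P-values were two-sided and adjusted over all genes by Benjamini-Hochberg, with a call at an adjusted p under 0.05. The fits were also run on simulated reads, with changes planted only in genes with more reads than most members had. That run therefore does not cover the scarce members. Fold changes of low genes are understated on this scale. Floors are 3 reads. Intervals are at 95%.

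Same-numbered COV434 libraries deviated together (correlations 0.400, 0.474 and 0.166 over 12060 genes) and count as paired, on the data and the label numbers alone. COV434 libraries of different numbers gave between -0.469 and 0.154. The 0.154 was for untreated library 3 with treated library 2, close to the 0.166, so the data hardly set the pair of library 3 apart. The values printed are from the unpaired fit, with the paired one named where given. Same-numbered KGN libraries did not deviate together (-0.016, -0.018 and -0.019).

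The members and lists were chosen with earlier results of these data known. Named were all members, the receptors, SIRT3, GAPDH and up to 3 called genes per list, line and direction, and other genes were chosen after their values were seen. The voom fit with pairing, pairing or leaving out treated COV434 library 1 at the 0.1 FPKM filter, and GAPDH scaling were added after seeing the data. No 2 libraries were identical. Protein, qPCR and animal measurements of the study were not analysed here, and the values of 1 marker gene are not reported here.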

Additional observations from a re-analysis of the deposited data

How the results depend on the processing

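The alternatives were a pseudocount of 0.1, a filter of 0.1 FPKM or none, median-ratio and quantile scaling, voom on recovered reads, a replicate block, 1 fit of all 12 libraries and leaving out each library. Of 40 group levels of the members, 40 moved by less than 1 SD under median-ratio scaling. Within KGN, 1 member was called with scaling to GAPDH (LIF) and none otherwise, and without the treated library 3 no member passed the filter. In COV434, 1 was called in the fit of all 12 libraries (LIF), where KGN shared in the estimate of the spread. The adjusted p of IL6 ranged from 0.0545 to 1.0 and that of LIF from 0.0199 to 1.0.

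For the difference between the lines, the replicate block called 1 member (IL6, also 1 at the 0.1 FPKM filter), a call that rests on a KGN side fixed at 0 and that voom with the block did not give (adjusted p = 0.603). Leaving out libraries gave 0 to 1. The block gave 3 of 52 pathway genes in COV434, and 12 of 36 in KGN, where the libraries share only a number. Over all genes it called 39 of 12060 higher and 48 lower in COV434, and 1662 and 1615 of 12671 in KGN. It changed no other call of a member in these fits, IL1A between the untreated lines excepted. Between the untreated lines, where more genes enter, 6 of 9 members were called at the 0.1 FPKM filter. They numbered 7 of 10 with no filter and 7 of 9 with voom. Without a filter 7346 of 32839 genes were called higher in KGN and 5689 lower, and with voom 9087 and 5433 of 22017. Members that entered through 1 line alone had to differ, so these counts are a description. With the block 5 members were called at the 0.1 FPKM filter, where 6079 of 21930 genes were called higher in KGN and 5291 lower. With the block and voom 7 were called, where 8402 and 5163 of 22017 genes were. Leaving out libraries gave 1 to 3 members.

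The pathway genes called in KGN numbered 2 of 52 in the fit of all 12 libraries and 34 of 36 with scaling to GAPDH. They numbered 10 to 17 when libraries were left out. The fit of all 12 takes 1 spread for both lines. In COV434 it called 7 of 52 pathway genes, where 223 of 13127 genes were called higher and 257 lower. With the block and voom 7 of 61 were called, where 197 of 19325 genes were called higher and 218 lower. The cause of these differing counts was not tested. The log2 difference of CXCL2 in COV434 turned sign at a pseudocount of 0.1 (-0.0047) and ranged from -0.30 to 0.28 when libraries were left out. Its difference between the lines turned at a pseudocount of 0.1 (0.0047), with voom (0.052) and with the block and voom (0.013), and ranged from -0.28 to 0.22. Depth limits IL1A, IL1B and CXCL3 in KGN and IL11 in COV434, each with at most 8 reads per library.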

Other observations

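Some other SASP genes also differed widely in reads between the lines, and the following were picked after their values were seen. HGF, a growth factor of mesenchymal cells, had 148114 reads in the 6 libraries labelled KGN and 0 in the 6 labelled COV434. It averaged 144.2 ± 5.12 FPKM in untreated and 135.3 ± 2.68 in treated KGN (SD, n = 3), and its response to 77-39 was not called (log2 difference -0.09, adjusted p = 0.189 by limma). TIMP1, an inhibitor of metalloproteases, had 4 reads in KGN and 28214 in COV434. In COV434 it had 63.8, 223.9 and 209.8 FPKM untreated and 98.1, 237.2 and 255.7 treated, with library 1 the lowest in both groups, as for IL6, CXCL2 and CCL2. CCL5 had 8 reads in KGN and 8524 in COV434, and CSF2, the cytokine GM-CSF, had none in either line.

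The genes next to IL1A and IL1B on chromosome 2 were near 0. IL1RN, the IL-1 receptor antagonist, had 0 reads in KGN and 23 in COV434, and IL36RN, the antagonist of the IL-36 receptor, had 24 in KGN and 2 in COV434.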
